A study of Mus musculus with 2 samples.

Results

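S100a8-high Camp-low cells were examined in cultures of mouse bone marrow cells (BM) with GM-CSF, a growth factor under which dendritic cells, macrophages and neutrophils arise. The members were chosen by their S100a8 and Camp transcripts. A cell was a member when at least 3% of its gene UMIs (unique molecular identifiers, each 1 counted transcript) came from S100a8 and under 0.2% came from Camp. Cells also had to carry a single hashtag of day 4, 5 or 7, 500 or more detected genes and under 15% mitochondrial UMIs. Of 16308 cells that met these quality limits, 2868 were members, 1022 of 7872 in control and 1846 of 8436 in heme. The levels of S100a8 and Camp in them are therefore a description.

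Lineage-depleted progenitors of C57BL/6 mice aged 8 to 10 weeks were grown with GM-CSF (20 ng/ml). Albumin (control) or 300 µM heme bound to albumin (heme) was added on day 3, and cells were collected on days 4, 5 and 7. Each treatment was 1 droplet library of pooled cultures, which carried antibody-bound DNA hashtags named for the culture day. The sources differ on the length of the exposure in the day 5 culture, so culture days are used throughout. Neither the number of mice behind a culture nor a replicate culture is given, so no difference between cultures has a replicate check and no p-value is given.

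Neutrophils arise from granulocyte progenitors that divide while they fill primary granules with Elane, Prtn3 and Mpo, and then secondary granules with Ltf, Ngp and Camp. After the last division the cells make late granule enzymes such as Mmp8 and Mmp9, and gain surface receptors such as Cxcr2, a chemokine receptor for their release and migration. S100a8 and S100a9 form calprotectin, an abundant protein of the neutrophil cytoplasm. Csf1r, the receptor for M-CSF, and Adgre1, which encodes F4/80, are used to mark mouse monocytes and macrophages.

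The members carried a median of 3866 to 7962 UMIs in control and 6182 to 8422 in heme. Their summed UMIs ranged from 287221 in control on day 7, where there were only 61 members, to 8708618 in heme on day 5. Both libraries held 112 barcodes in common, and 17 members had a barcode that was also in the other library, but no barcode was a member in both. Levels are given as CPM, the UMIs of a gene summed over the cells of a culture and scaled to a fixed total of gene UMIs per culture. They compare a gene between cultures, not different genes. All intervals are 95% intervals of the counts, and the spread between cultures of 1 treatment is not in them.

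On each day, members took a larger share of the cells in heme than in control. In control, 299 of 2263 cells (13.2%, exact binomial interval 11.8% to 14.7%) were members on day 4. The control members numbered 662 of 2601 (25.5%, 23.8% to 27.2%) on day 5 and 61 of 3008 (2.03%, 1.55% to 2.60%) on day 7. In heme, they were 552 of 2999 (18.4%, 17% to 19.8%), 1069 of 2665 (40.1%, 38.2% to 42.0%) and 225 of 2772 (8.12%, 7.13% to 9.20%). In both treatments the share was highest on day 5 and lowest on day 7. Heme minus control came to 5.19 (3.19 to 7.18), 14.7 (12.1 to 17.2) and 6.09 (4.95 to 7.27) percentage points on days 4, 5 and 7. The size of the day 5 difference depended on the upper limits on cells: with at most 5000 genes and under 30% ribosomal protein UMIs, as in the methods of the study, it was 26.5 points. A larger share can reflect more members or fewer other cells, which cannot be told apart here.

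The part of the S100a8-high cells that had little Camp followed another order. Of all S100a8-high cells, 21.6%, 54.0% and 71.8% were Camp-low in control on days 4, 5 and 7, and 26.2%, 79.5% and 56.8% in heme. Heme lay 4.64 points above control on day 4 (1.71 to 7.52), 25.5 above on day 5 (21.9 to 29.1) and 14.9 points below on day 7 (the difference was -14.9, interval -25.5 to -3.07). The control value of day 7 rests on 61 Camp-low and 24 Camp-high cells. No Camp UMI at all was found in 27.8%, 46.8% and 55.7% of the control members and in 20.1%, 39.4% and 31.6% of the heme members, and the shallower control members of days 5 and 7 had fewer UMIs in which to find one.

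**Figure D1:**
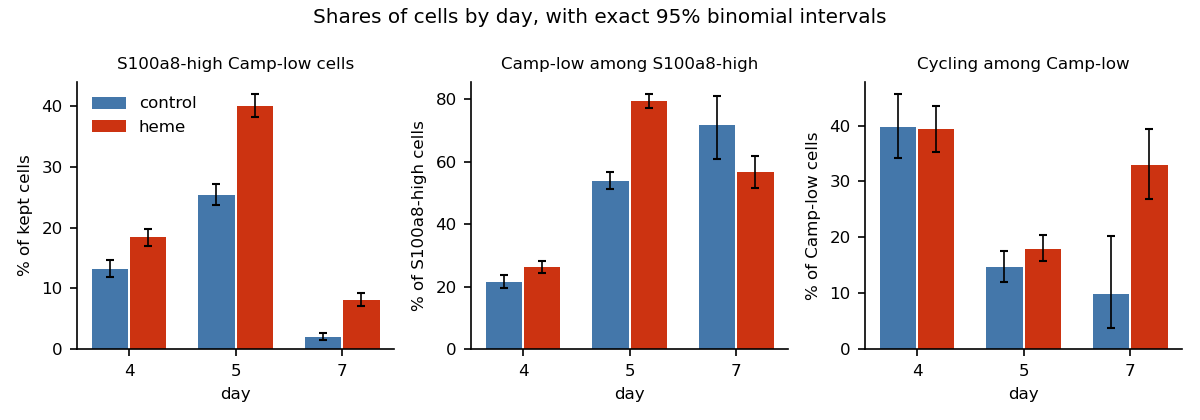
Share of S100a8-high Camp-low cells by culture day: members as a percent of all kept cells, as a percent of all S100a8-high cells, and the percent of members that were cycling, for control and heme, with exact 95% binomial intervals. The share of kept cells peaks on day 5 at 25.5% in control and 40.1% in heme, and the cycling share on day 7 is 9.84% in control and 32.9% in heme.

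The marker genes given with the label, mature neutrophils, described only some of the members. Among the members was a group of cells that divided and carried primary granule transcripts. A member was called cycling when the 10 cell cycle genes of a fixed list (such as Mki67 and Top2a) made up 1000 CPM or more of its UMIs, a split that was set after the data had been seen. By this split, 119 members (39.8%), 97 (14.7%) and 6 (9.84%) were cycling in control on days 4, 5 and 7, and 217 (39.3%), 192 (18%) and 74 (32.9%) in heme. Between 3 and 66 members per culture lay near the cut, from 700 to 1400 CPM. Cycling members were much deeper, with median UMIs of 8848 to 18966 against 3736 to 5994 in the others, so they weigh more in summed UMIs than in cell numbers. Ribosomal protein genes took 15.0% to 19.6% of their UMIs against 4.75% to 7.64% in the others.

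Mmp8, the neutrophil collagenase, separated these groups. It stood at 52.4, 201 and 0 CPM in the cycling control members on days 4, 5 and 7, and at 2621, 1439 and 773 CPM in the control members that were not cycling. In heme, Mmp8 stood at 140, 603 and 373 CPM in cycling members and at 3059, 3445 and 2370 CPM in the others. Elane, the neutrophil elastase of primary granules, had the opposite order. Cycling control members held 3470, 1560 and 899 CPM of Elane, and the other control members 33.3, 27.6 and 46.3 CPM. Cycling heme members held 588, 277 and 803 CPM of Elane, and the other heme members 45.5, 47.8 and 37.1 CPM. Mmp9 stood at 0 to 43.9 CPM in cycling control members and 4.40 to 56.9 CPM in cycling heme members, Cxcr2 at 3.43 to 14.0 and 9.54 to 22.8 CPM, and Il1b at 6.01 to 28.1 and 16.4 to 36.7 CPM. Of the label's markers other than S100a8, these 4 were thus at lower levels in cycling than in other members of every culture, and all members together are called Camp-low cells here. On day 3, before heme was added, 97.4% (control library) and 94.4% (heme library) of the cells meeting the same rule were cycling.

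**Figure D2:**
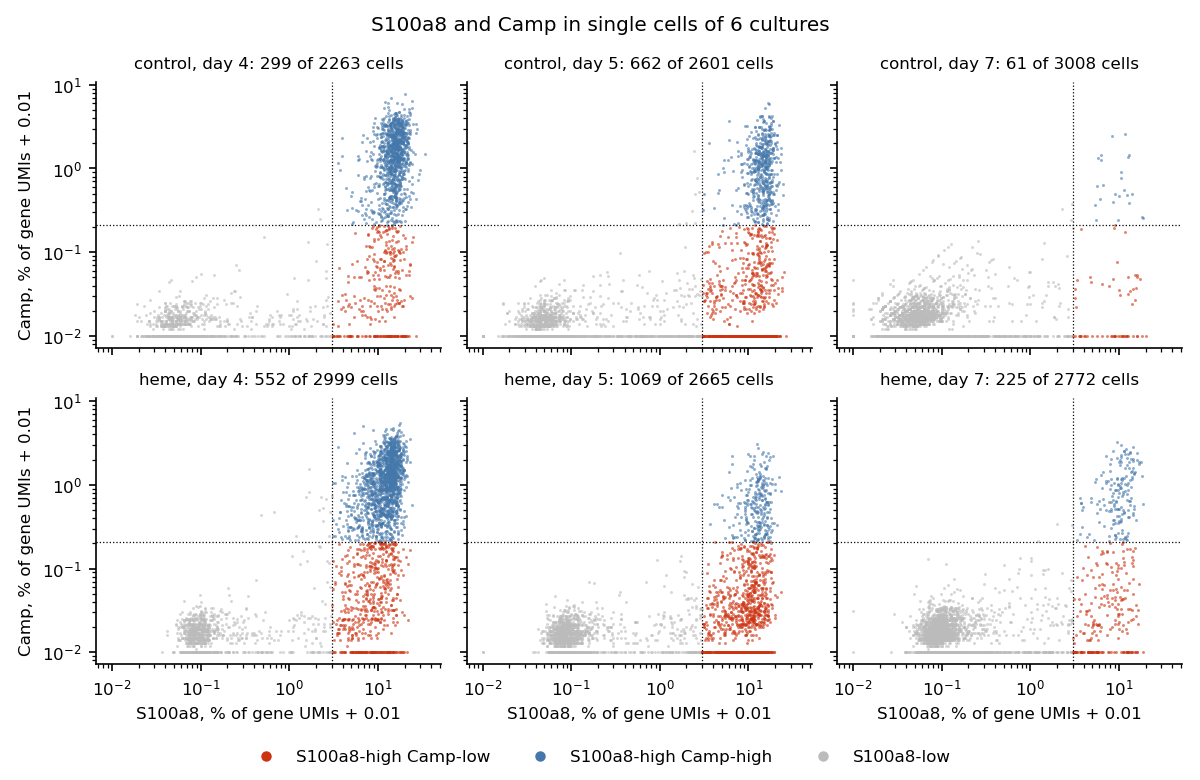
Each point is a kept cell, by its S100a8 (x) and Camp (y) percent of gene UMIs plus 0.01 on log axes, with 1 panel per culture, the limits of the rule as dotted lines and Camp-low cells in red. The S100a8-high Camp-low cells fill the region right of 3% S100a8 and below 0.2% Camp, which holds 61 cells in control and 225 in heme on day 7.

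In the members that were not cycling, the genes of mature neutrophils were present in all 6 cultures. Cxcr2, the receptor for CXC chemokines, stood at 83.4, 46.7 and 69.4 CPM on days 4, 5 and 7 in control and at 120, 157 and 98.8 CPM in heme. Csf3r, the G-CSF receptor, stood at 101, 92.6 and 60.2 CPM in control and 140, 192 and 129 CPM in heme. Both receptors had larger values in heme on each day, past 2-fold on day 5 for Cxcr2 and on days 5 and 7 for Csf3r. Mmp9, a gelatinase of late granules, stood at 1257, 841 and 939.6 CPM in control and 1040.5, 772 and 364 CPM in heme. Mmp8 was lower at each later day in control, whereas in heme it was highest on day 5. Il1b, which encodes an inflammatory cytokine, stood at 54.6, 140 and 213 CPM in control and 140, 136 and 61.8 CPM in heme, so that its order over days was opposite in the treatments. Fpr1, a receptor for formylated bacterial peptides, stood at 338, 274 and 278 CPM in control and 336, 444 and 183 CPM in heme.

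Secondary granule genes other than Camp were not absent from Camp-low cells. Ngp, the neutrophilic granule protein, stood at 4504, 3795 and 1953 CPM in the control members that were not cycling and at 7082, 5297 and 14610.1 CPM in those of heme. Ltf, which encodes lactoferrin, stood at 3708, 1240 and 518 CPM in control and 2357, 855 and 3305 CPM in heme. Both genes were thus at their lowest on day 7 in control and at their highest on day 7 in heme.

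Csf1r and Adgre1 were both found in Camp-low cells. Over all members, Csf1r stood at 42.5, 109 and 97.5 CPM on days 4, 5 and 7 in control, and at 83.3, 121 and 49.3 CPM in heme. Adgre1 stood at 49.3, 85.4 and 76.6 CPM in control and 91.6, 146 and 77.7 CPM in heme. Both genes were higher in Camp-low than in Camp-high cells (S100a8 of 3% or more with Camp at 0.2% or more) of every culture. Camp-high cells held 13.9, 25.8 and 14.7 CPM of Csf1r in control and 41.1, 34.1 and 24.5 CPM in heme. The Camp-low to Camp-high ratio of Csf1r was 3.07 (interval 2.43 to 3.88), 4.24 (3.43 to 5.27) and 6.62 (1.67 to 57.4) in control on days 4, 5 and 7. In heme this ratio was 2.03 (1.81 to 2.27), 3.54 (2.81 to 4.51) and 2.01 (1.41 to 2.91). For Adgre1 the ratios were 2.27, 3.54 and 10.4 in control and 2.13, 3.18 and 2.64 in heme, and the interval of the control value of day 7 was wide (1.68 to 430), since Camp-high cells held only 1 Adgre1 UMI there.

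These transcripts were not carried by a few cells alone. A Csf1r or Adgre1 UMI was found in 50.8%, 55.1% and 44.3% of the control members and 75.0%, 71.1% and 49.8% of the heme members. After each cell had been thinned to 2000 UMIs, which left out 8 to 71 members per culture, 11.0%, 20.1% and 15.4% of control members and 18.3%, 25.3% and 10.2% of heme members kept a Csf1r UMI, against 31.4%, 39.6%, 29.5%, 53.4%, 49.8% and 27.6% before thinning. For Adgre1 the thinned shares were 11.7%, 16.1% and 17.3% in control and 22.5%, 24.4% and 17.7% in heme, against 34.1%, 34%, 27.9%, 55.6%, 54.2% and 41.3% before thinning. As a measure of free RNA, erythroid cells of day 0 in the same libraries, which should lack both genes, were thinned to the same depth. There, 0.512% of 586 cells in control and 2.68% of 523 cells in heme kept a Csf1r UMI, and 0.341% and 0.382% kept an Adgre1 UMI, at median depths before thinning of 18577.5 and 23423 UMIs. The members' thinned shares were above these values in every culture. However, the erythroid cells were deeper than the members, and thinning does not adjust for this. The part of free RNA in the members' shares was not tested. Camp-high cells kept a Csf1r UMI in 3.19%, 4.50% and 0% of the thinned control cells, where 0 was found among few cells, and in 9.58%, 6.49% and 3.61% of the heme cells. S100a8-low cells kept one in 22.6%, 22.8% and 26.1% in control and 25.9%, 32.4% and 36.3% in heme. Members with either gene had 7639, 5365 and 4632 UMIs in the median in control and 9141, 7169.5 and 8167 in heme, and those without had 9111, 4078, 3024.5, 5938.5, 4425 and 5990 UMIs in the same order, so that in 5 of 6 cultures the members with a UMI of these genes were the deeper ones.

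The S100a8-low cells, which hold the MHC class II and macrophage transcripts of these cultures, held other levels of these genes. Their Csf1r was 30.4%, 80.5% and 60.8% of the S100a8-low level in control on days 4, 5 and 7, and 43.4%, 54.5% and 21.5% in heme. Their Adgre1 was 99.1%, 144% and 115% of the S100a8-low level in control and 91.9%, 124% and 39.6% in heme. Cd68, a lysosomal gene of macrophages and other phagocytes, was 48.2%, 111% and 82.7% of the S100a8-low level in control and 40.9%, 56.6% and 29.7% in heme. These 3 genes thus lay between 21.5% and 144% of the S100a8-low level. Mrc1, the mannose receptor of macrophages, reached 6.39% to 17.2% of the S100a8-low level over the 6 cultures. C1qb, a complement gene of macrophages, reached 1.65% to 14.6%, and Cd74, the invariant chain of MHC class II, 4.90% to 8.51%. Of the 10 macrophage genes listed, which include Csf1r and Adgre1, 7 to 9 had a UMI in the members of a culture, with a summed level of 162 to 350 CPM in control and 272 to 380 CPM in heme. C1qa was at 0 in the members of 4 cultures and Marco in the control members of all days. The summed level in S100a8-low cells was 457 to 830 CPM in control and 641 to 1481 CPM in heme. The part of macrophage RNA or of unseen doublets in the members' Csf1r and Adgre1 was not tested.

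Members that were not cycling had higher CPM of both genes than cycling members in every culture. Cycling members were much deeper, so a higher CPM here need not mean more UMIs per cell. In members that were not cycling, Csf1r stood at 89.8, 139 and 111 CPM in control and 134, 149 and 62.9 CPM in heme, and Adgre1 at 123, 114 and 92.6 CPM in control and 180, 188 and 117 CPM in heme. In cycling members, Csf1r stood at 20.6, 54.9 and 56.2 CPM in control and 56.1, 68.2 and 40.4 CPM in heme. Adgre1 in cycling members stood at 15.0, 33.0 and 28.1 CPM in control and 44.0, 67.2 and 52.1 CPM in heme. In control on day 7 the cycling values rest on 6 cells.

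**Figure D3:**
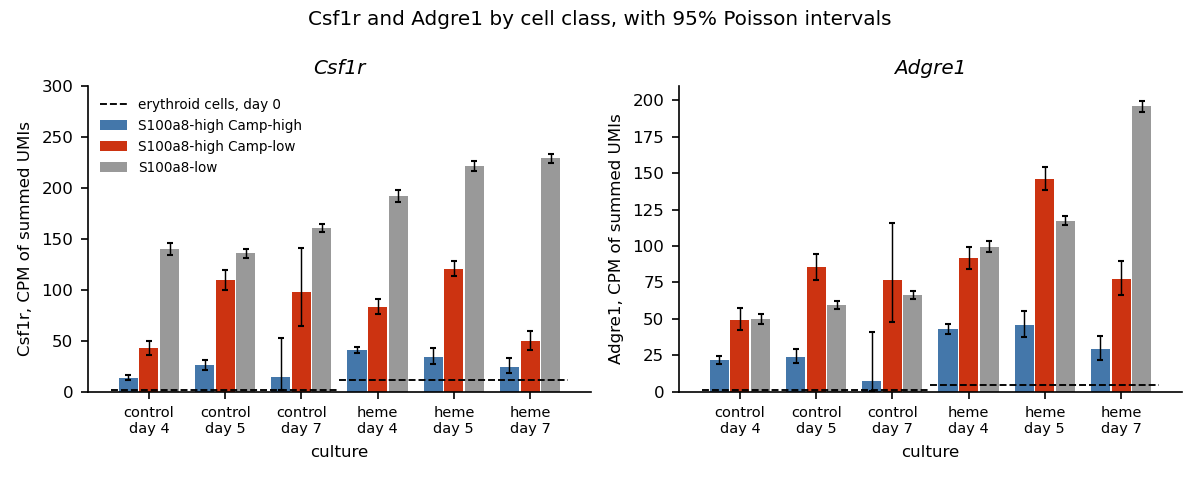
Bars give Csf1r (left) and Adgre1 (right) in CPM of summed UMIs in Camp-high, Camp-low and S100a8-low cells of each culture, with exact 95% Poisson intervals, and the dashed line gives erythroid cells of day 0 of the same library. In every culture Camp-low cells lie above Camp-high cells, and for Csf1r below S100a8-low cells, while for Adgre1 they are 144% and 124% of S100a8-low cells on day 5 in control and heme and 39.6% on day 7 in heme.

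Members differed among themselves with their S100a8 share. On day 5, members with 3% to 5%, 5% to 8% and 8% or more S100a8 held 713, 719 and 1202 CPM of Mmp8 in control and 1421, 1918 and 3032 CPM in heme. Ngp stood at 1663, 3099 and 6349 CPM over the same bins in control and 2325, 4383 and 7562 CPM in heme. Csf1r was spread more evenly, at 126, 126 and 98.2 CPM in control and 146, 125 and 111 CPM in heme. Cells lay on both sides of each limit. There were 229 members at 3% to 4% S100a8 and 219 cells just outside at 2% to 3%, while 379 members lay at 0.1% to 0.2% Camp and 281 cells just outside at 0.2% to 0.3%.

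The most similar cells of the cultures were the 3677 Camp-high cells. Relative to these, and over the 5 cultures with 50 or more cells of both kinds, Ltf was among the genes lowest in Camp-low cells, at 0.205, 0.137, 0.178, 0.115 and 0.282 times the Camp-high level (control days 4 and 5, heme days 4, 5 and 7). Of 5 secondary granule genes, 4, 4 and 4 were past 2-fold lower in control on days 4, 5 and 7 and 3, 4 and 3 in heme, beside 1.33%, 2.01%, 3.62%, 0.953%, 1.44% and 1.46% of all genes compared. This direction is tied to the rule, since Camp is a secondary granule gene too. Hdc, which encodes the histamine-forming enzyme, stood at 0.233, 0.396, 0.330, 0.179 and 0.195 times, and Slc2a3, a glucose transporter, at 0.423, 0.356, 0.413, 0.224 and 0.345 times. Among the genes furthest higher were Mpeg1, which encodes the pore-forming perforin-2 of phagocytes, at 3.72, 4.50, 2.84, 2.96 and 3.19 times, and Clec4n, which encodes the fungal receptor Dectin-2, at 6.05, 9.65, 3.67, 4.96 and 2.81 times. Lpl, lipoprotein lipase, stood at 2.94, 4.10, 2.81, 7.52 and 2.96 times. Of the 7 primary granule genes, 6, 5 and 2 (of 4 compared) were past 2-fold higher in control and 4, 0 and 1 in heme. Chemokine and cytokine genes were past 2-fold higher for 2 of 7, 5 of 8 and 7 of 7 in control and 3 of 8, 4 of 8 and 7 of 9 in heme. Over all genes compared, 11.1%, 13.3% and 12.3% in control and 5.16%, 6.13% and 5.72% in heme were past 2-fold higher. These ratios describe classes cut from the same cells by S100a8 and Camp and were not tested.

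Relative to S100a8-low cells, the furthest higher genes were neutrophil genes other than S100a8. S100a8, which divides these classes, is a neutrophil gene too, so the direction of these ratios is tied to the rule and was not tested. Ly6g, whose protein is the standard surface marker of mouse neutrophils, was 108, 49.5 and 199 times as high in control and 29.8, 29.4 and 30 times in heme. Retnlg, a resistin-like gene of neutrophils, was 339, 107 and 72.4 times as high in control and 82.5, 39.8 and 40.7 times in heme. The furthest lower included the MHC class II genes H2-Aa and H2-Ab1 and also Cd74, and 7 of 7 MHC class II genes were past 2-fold lower in each culture, beside 15.6%, 14.2% and 10.6% of all genes compared in control and 11.4%, 11.7% and 12.1% in heme. Secondary granule genes other than Camp were past 2-fold higher for 5 of 5 in each culture, beside 5.54%, 8.44% and 8.46% of all genes compared in control and 5.29%, 6.61% and 6.88% in heme.

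Members also differed between days within a treatment. The ratios and counts given here are over all members, and the share of cycling members changed between days too. The part of this share in the differences between days was not tested. From day 4 to day 5, 292 of 7210 genes were past 2-fold higher in control (4.05%) and 180 lower (2.5%), and 79 of 7741 were higher in heme (1.02%) and 125 lower (1.61%). Elane went from 2382 to 562 CPM in control and from 398 to 127 CPM in heme, ratios of 0.236 (0.225 to 0.247) and 0.319 (0.298 to 0.343). By the levels given above for members that were not cycling, Elane did not differ past 2-fold between these days in either treatment. Clec4n and Ccl6, a chemokine gene of myeloid cells, were higher on day 5 than on day 4 over all members of both treatments. Clec4n went from 168 to 605 CPM in control and from 617 to 1345 CPM in heme, and Ccl6 from 3020.5 to 7949 CPM in control and from 3424 to 7616 CPM in heme. From day 5 to day 7, 162 of 7470 genes were past 2-fold higher in control (2.17%) and 199 lower (2.66%), and 160 of 7734 were higher in heme (2.07%) and 85 lower (1.1%). In heme, Elane was 3.93 (3.62 to 4.28) and Ngp 2.53 times as high on day 7 as on day 5, and Mmp8 0.473 and Cxcr2 0.405 times. Among heme members that were not cycling, however, Elane was lower on day 7 than on day 5. Neither Mmp8 nor Cxcr2 was past 2-fold lower in these cells, while Ngp was still past 2-fold higher. In control, Elane was 0.459 and Ngp 0.663 times as high on day 7 as on day 5. Among control members that were not cycling, Ngp was also lower on day 7, but Elane was higher.

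**Figure D4:**
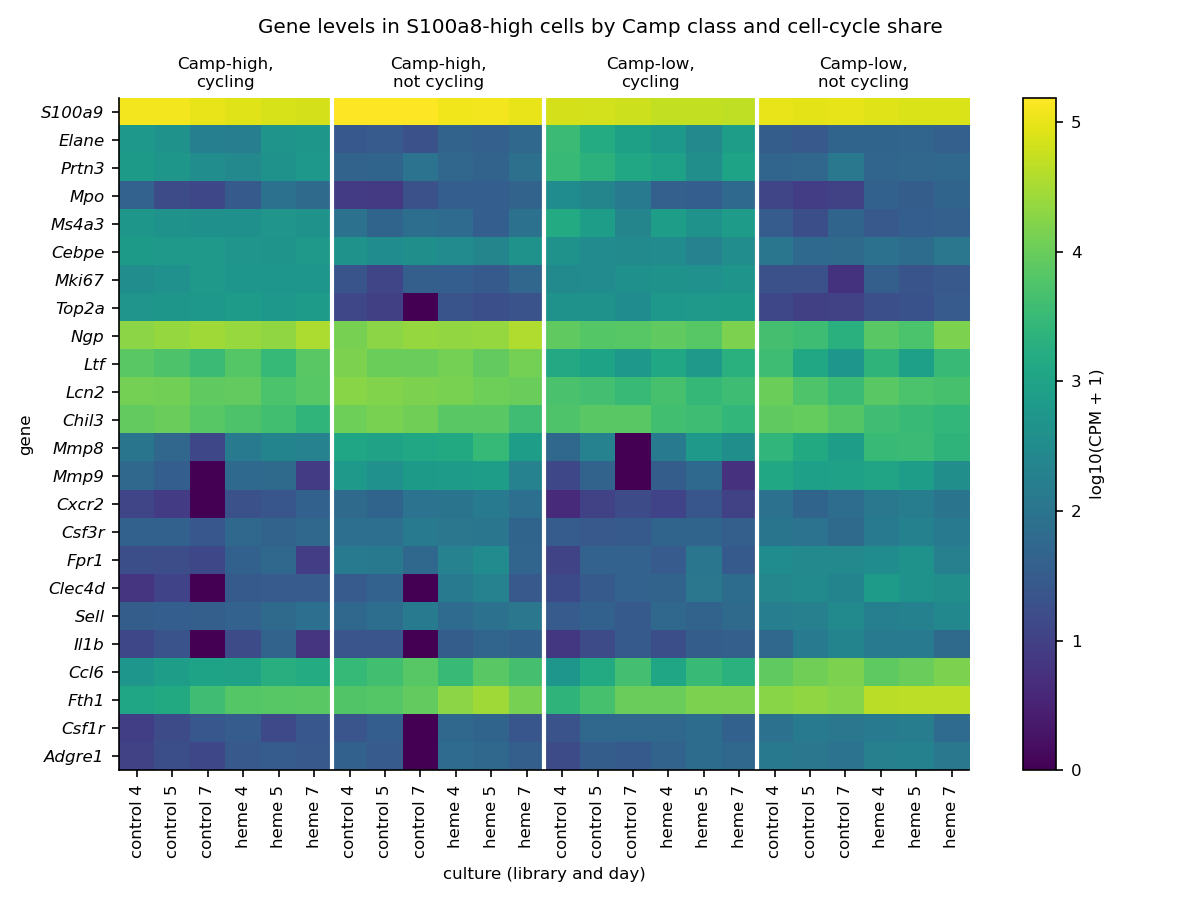
Levels of named genes (rows) as log10(CPM + 1) by color, in columns for the 6 cultures (treatment and day), in 4 blocks for Camp-high and Camp-low cells that were cycling or not. Among Camp-low cells, Elane is high in the cycling block (3470 CPM in control on day 4 against 33.3 in the other block) and Mmp8 in the block that was not cycling (2621 against 52.4 CPM).

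Heme and control members of the same day were compared gene by gene. A gene is called higher or lower where the heme to control ratio was at least 2-fold and its counting interval excluded 1, among genes that had at least 20 UMIs over the compared cultures and at least 10 CPM in the higher one. On day 4, 936 of 7647 genes (12.2%) were called, 880 higher (11.5%) and 56 lower (0.732%). Day 5 gave 486 calls among 7547 genes (6.44%), 353 higher (4.68%) and 133 lower (1.76%). Day 7 gave 960 calls among 7746 genes (12.4%), 753 higher (9.72%) and 207 lower (2.67%). This excess of higher calls depended on the scale. The median gene lay 0.40, 0.23 and 0.31 higher in heme on the log2 scale, and the higher calls made up 94%, 72.6% and 78.4% of all calls, whereas after TMM scaling, which centres the bulk of the genes, they made up 30.7%, 36.6% and 57.0%. With DESeq2 size factors they made up 46.6%, 53.1% and 53.9%. Among members that were not cycling, 10.8%, 5.84% and 7.36% of the genes tested were called higher and 1.45%, 2% and 3.31% lower. Among cycling members these shares were 17.8%, 12.2% and 2.31% higher and 0.778%, 2.18% and 1.79% lower.

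On all 3 days, 54 of 7180 genes were called higher (0.752%) and 10 lower (0.139%). All 10 lower genes kept their call on each day after TMM scaling, but this scaling moved every ratio down, so it could remove no lower call. Without cycling members, Gpx1, Isg15, Klk1b11 and Myl12b kept the lower call on each day. Ccl17, Commd1, Gpx3, Mgl2, Srgn and Stfa1 did not. Of the 54 higher genes, 15 kept their call on each day after TMM scaling. The 15 were Hmox1, Slc48a1, Gclm, Slc7a11, Cat, Sod1, Ptgr1, Abcc1, Abcd3, Hgf, Lrp8, Lars2, Dnmt3l, Rnf128 and CT010467.1. Among them are genes of heme breakdown, glutathione synthesis and peroxide removal, and Abcc1, a pump that exports glutathione conjugates. On day 7 in control members, Rnf128 stood at 0 CPM, so its ratio there comes from the floor of 3 counts. Hgf stood at 3.48 CPM there (ratio 7.52, 1.30 to 302) and Abcd3 at 10.4 CPM (5.52, 1.85 to 27.1). The 3 days share no cells but come from the same pair of libraries.

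Hmox1, Slc48a1 and Slc40a1 were the heme and iron genes called higher in heme members on each day. Hmox1, the heme oxygenase that opens the heme ring, stood at 68.3, 79.5 and 73.1 CPM on days 4, 5 and 7 in control and 993, 1487 and 1341 CPM in heme. The ratios were 14.5 (12.7 to 16.6), 18.7 (16.8 to 20.9) and 18.3 (12.0 to 29.7), and each heme culture lay above each control culture. No single member held more than 5.46% of the Hmox1 UMIs of a heme culture. As a measure of free RNA, erythroid cells of day 0, collected before heme was added, held 113 CPM of Hmox1 where they had been pooled with heme cultures and 0.919 CPM where they had been pooled with control cultures. After thinning to 2000 UMIs, 73.4%, 83.7% and 75.3% of the heme members and 12.4%, 15.1% and 11.5% of the control members kept an Hmox1 UMI, against 20.8% and 0.171% of these erythroid cells. Before thinning these shares were 98.0%, 97.2% and 96% in heme members, 32.4%, 27.8% and 18% in control members, and 86.0% and 1.71% in erythroid cells. The heme members were above these erythroid values on each day. The erythroid cells were deeper than the members, so their values need not be the free RNA level of members. Slc48a1, a heme transporter of the lysosome, stood at 47.5, 44.5 and 45.3 CPM in control and 177, 188 and 185 CPM in heme. Slc40a1, the iron exporter ferroportin, stood at 59.8, 63.9 and 34.8 CPM in control and 143, 162 and 198 CPM in heme. Fth1, the ferritin heavy chain that stores iron, stood at 7492, 15530 and 15608 CPM in control and 22186, 34791 and 27199 CPM in heme, which was past 2-fold on days 4 and 5 only. After TMM scaling the differences of Slc40a1 on day 4 (0.82 on the log2 scale) and Fth1 on day 5 (0.90) fell short of 2-fold, while those of Hmox1 and Slc48a1 were past it on each day. Tfrc, the transferrin receptor for iron uptake, went the other way on days 4 and 5, at 134 and 113 CPM in control and 66.1 and 54.3 CPM in heme, and stood at 83.6 and 84.3 CPM on day 7. Of the listed heme and iron genes, 8 of 11 were called higher on day 4, 4 of 11 on day 5 and 3 of 12 on day 7, beside 11.5%, 4.68% and 9.72% of all genes, with 1 lower, Tfrc, on days 4 and 5. The list median was 1.14, 0.73 and 0.46 on the log2 scale against 0.40, 0.23 and 0.31 over all genes.

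Hmox1 was called higher in both cycling and other members. It was 26.9, 41.7 and 17.5 times as high in cycling members of heme as of control, and 10.4, 16.4 and 24.0 times as high in the members that were not cycling. Fth1 in members that were not cycling stood at 18577, 21318 and 17455 CPM in control and 44599.8, 45621 and 46681 CPM in heme, past 2-fold on each day. Tfrc in these members stood at 36.1, 64.7 and 69.4 CPM in control and 28.9, 34.8 and 46.0 CPM in heme, which was not past 2-fold on any day. Some macrophage genes also differed between heme and control members. Marco, a scavenger receptor of macrophages, had no UMI in control members and stood at 13.4, 9.42 and 51.9 CPM in heme members. It stood at 6.77 CPM in the erythroid cells pooled with them, which were deeper, and at 5.84, 9.19 and 35.9 CPM in Camp-high heme cells. Mrc1 stood at 6.16 and 15.1 CPM on day 4 and was called higher, and Mmp12, the macrophage elastase, stood at 40.8, 125 and 181 CPM in control and 221, 201 and 407 CPM in heme, called on days 4 and 7. Of the listed macrophage genes, 2 of 5 tested were called higher on day 4, 0 of 3 on day 5 and 1 of 5 on day 7. Over all genes these shares were 11.5%, 4.68% and 9.72%. None of the listed macrophage genes was lower. Marco, called on days 4 and 7, was tested there through its heme level alone, so it could not be called lower. S100a8-low cells of the heme library held 3185, 4075 and 5501 CPM of Hmox1. Camp-high cells held 27.2, 33.8 and 22.1 CPM of Hmox1 in control and 623, 879 and 684 CPM in heme. The Hmox1 difference was thus not particular to Camp-low cells. The part of macrophage RNA in the members' differences was not tested.

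Gclm, Slc7a11, Cat and Nqo1 were the oxidant response genes called higher on each day. Gclm, the regulatory subunit of the enzyme that limits glutathione synthesis, stood at 196, 186 and 205 CPM in control and 970, 837 and 697 CPM in heme. Its ratios were 4.95 (4.57 to 5.37), 4.51 (4.19 to 4.86) and 3.39 (2.62 to 4.48). Camp-high cells also differed, with 119, 86.6 and 81.0 CPM of Gclm in control and 629, 585 and 432 CPM in heme. Slc7a11, which imports cystine for glutathione, stood at 124, 191 and 132 CPM in control and 616, 537 and 497 CPM in heme. Cat, catalase, stood at 48.1, 68.4 and 52.2 CPM in control and 190, 210 and 176 CPM in heme. Nqo1, a quinone reductase, stood at 26.7, 26.8 and 13.9 CPM in control and 65.8, 62.2 and 56.4 CPM in heme, and its day 4 difference fell short of 2-fold after TMM scaling (0.86 on the log2 scale). Of the listed oxidant response genes, 9 of 17 were called higher on day 4, 5 of 17 on day 5 and 4 of 18 on day 7, beside 11.5%, 4.68% and 9.72% of all genes, and none was lower. The list median was 1.11, 0.65 and 0.89 on the log2 scale, also above that of all genes. By contrast, Gpx1, a glutathione peroxidase outside that list, was called lower on all 3 days, at 1669, 1338 and 999 CPM in control and 618, 483 and 438 CPM in heme, and was lower in cycling and in other members alike.

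The promoter of Gclm is shown because Gclm was called higher on all days and because its window holds the core TGACNNNGC of the antioxidant response element, the motif bound by the transcription factor NRF2. The 250 bases before the start of the gene (RefSeq, GRCm38.p6, chr3:122245307-122245556, plus strand) are given 5′ to 3′, with the match in capitals.
Gclm: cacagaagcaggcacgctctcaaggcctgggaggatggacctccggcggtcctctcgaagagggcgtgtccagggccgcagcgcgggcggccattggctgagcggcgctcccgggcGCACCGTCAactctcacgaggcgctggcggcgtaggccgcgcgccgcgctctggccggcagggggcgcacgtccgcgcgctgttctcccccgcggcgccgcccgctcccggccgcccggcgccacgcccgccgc
The match is on the minus strand and begins at position -134 relative to the start. Both strands of 300-base windows (250 before and 50 after the start) were searched, and 4071 of 32851 windows (12.4%) held the motif. Of the 7 heme, iron and oxidant genes called higher on all days, 4 had a window in the table (Cat, Gclm, Nqo1 and Slc7a11), and only that of Gclm held the motif. A match describes letters and does not show binding.

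**Figure D5:**
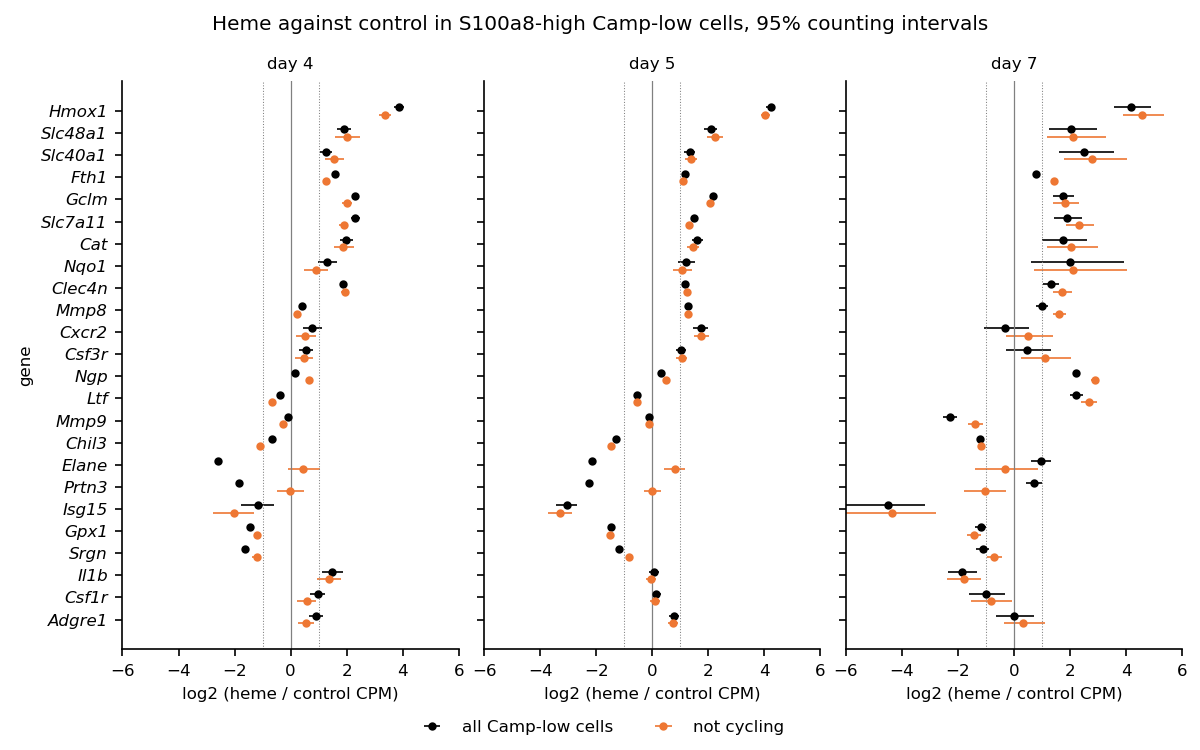
Heme to control ratio of named genes in S100a8-high Camp-low cells on days 4, 5 and 7, on a log2 scale with 95% counting intervals, for all members (black) and for members that were not cycling (orange). Dotted lines mark 2-fold, intervals are drawn to 6 at most, and the day 4 ratio of Elane is 0.167 over all members and 1.37 without cycling members, whereas Hmox1 is past 2-fold on all days in both.

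Primary granule genes were lower in heme members on days 4 and 5. Elane stood at 2382 and 562 CPM in control on these days and 398 and 127 CPM in heme, ratios of 0.167 (0.160 to 0.175) and 0.226 (0.211 to 0.243). Prtn3, proteinase 3, stood at 2273 and 774 CPM in control and 629 and 160 CPM in heme, and Mpo, myeloperoxidase, at 230 and 85.9 CPM in control and 37.7 and 33.6 CPM in heme. With Ctsg and Prss57, 5 of 7 listed genes were called lower on both days, beside 0.732% and 1.76% of all genes. On day 7 only Ms4a3 was called, higher in heme, as were 9.72% of all genes. The lower level on days 4 and 5 was seen in the cycling members, in which Elane stood at 0.169 and 0.177 times and Mpo at 0.111 and 0.148 times the control level. Without cycling members, Elane was 1.37 (0.928 to 2.05) and 1.74 (1.34 to 2.27) times the control level, and Mpo 3.52 (1.92 to 7.06) and 4.31 (2.74 to 7.12) times, at 11.1 and 7.71 CPM in control. Cycling members made up 39.8% of the members in control and 39.3% in heme on day 4 and 14.7% and 18% on day 5, and the part of these shares in the levels was not tested. On day 7, 1 control member held 82.4% of the Elane UMIs.

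Genes of mature neutrophils were not uniformly higher or lower in heme. Mmp8 was 1.34 (1.28 to 1.40) times the control level on day 4, 2.44 (2.36 to 2.52) on day 5 and just short of the 2-fold limit on day 7, and without cycling members the ratios were 1.17, 2.39 and 3.07. Cxcr2 was 1.69, 3.30 and 0.805 times the control level on days 4, 5 and 7, and Csf3r 1.47, 2.02 and 1.39 times, each called higher on day 5. After TMM scaling the day 5 differences were 1.03 for Mmp8, 1.46 for Cxcr2 and 0.76 for Csf3r on the log2 scale, so that Csf3r was no longer past 2-fold, and the day 4 difference of Mmp8 was -0.02. Mmp9 was 0.948 and 0.930 times the control level on days 4 and 5 and 0.207 (0.173 to 0.248) on day 7, where it was called lower with or without cycling members. Of the 11 chemoattractant and growth factor receptors listed, 2 were called higher on day 5 and 2, Fpr1 and Ptafr, lower on day 7, and Fpr1 was not past 2-fold there without cycling members. Of the 8 late granule genes listed, 1 was called higher on day 5 and 3 (Arg2, Hp and Mmp9) lower on day 7. Over all genes, 4.68% were called higher on day 5 and 2.67% lower on day 7. Ly6g was lower in heme, at 253, 198 and 428 CPM in control and 155, 93.4 and 97.2 CPM in heme, and was called on days 5 and 7. Retnlg stood at 464, 131 and 244 CPM in control and 172, 80.3 and 55.0 CPM in heme, called lower on days 4 and 7, but 77.1% of its control UMIs on day 7 were in 1 member.

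The day 7 difference in secondary granule genes was large. Ngp stood at 3137 CPM in control and 14729 in heme, a ratio of 4.70 (4.39 to 5.02), and at 1.10 and 1.23 on days 4 and 5. Ltf stood at 533 CPM in control and 2500 in heme on day 7, a ratio of 4.69 (4.00 to 5.55), and at 0.771 and 0.679 on days 4 and 5. Without cycling members the day 7 ratios were 7.48 for Ngp and 6.37 for Ltf, so the differences were larger without dividing cells. Chil3, which encodes the chitinase-like protein Ym1, was lower in heme at 0.624, 0.408 and 0.429 times the control level, called on days 5 and 7. Csf1r was 1.96 (1.63 to 2.37), 1.10 (0.988 to 1.23) and 0.505 (0.331 to 0.795) times the control level on days 4, 5 and 7, and Adgre1 1.86, 1.71 and 1.01 times. Neither was called on any day, and after TMM scaling the day 5 difference of Csf1r was -0.12 and that of Adgre1 0.51 on the log2 scale.

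Some interferon response genes were lower in heme members. Isg15, a ubiquitin-like protein made in response to interferon, stood at 16.4, 71.1 and 69.6 CPM in control and 7.28, 8.61 and 3.11 CPM in heme, and was called lower on all 3 days. Of the listed interferon genes, 1 of 4 was called lower on day 4, 6 of 10 on day 5 and 2 of 7 on day 7, beside 0.732%, 1.76% and 2.67% of all genes, and none was higher. Without cycling members the counts were 4 of 8, 8 of 11 and 3 of 5, beside 1.45%, 2% and 3.31% of all genes. Rsad2, which encodes the antiviral protein viperin, stood at 48.8 and 45.3 CPM in control on days 5 and 7 and 8.04 and 3.11 CPM in heme. Isg15 on all days and Rsad2 on days 5 and 7 thus reached the limit of 10 CPM in control only. Such genes could only be called lower or not called, so the counts partly follow from this limit. No control member held more than 20% of the Isg15 UMIs of its culture.

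Cytokine genes differed by day. Il1b stood at 21.4, 96.2 and 167 CPM in control and 59.6, 100.02 and 46.6 CPM in heme, with ratios of 2.78 (2.16 to 3.62), 1.04 (0.923 to 1.17) and 0.279 (0.196 to 0.401). It was thus called higher on day 4 and lower on day 7, and the ratios without cycling members were 2.56, 0.972 and 0.290. Il1rn, the receptor antagonist of interleukin 1, was 0.881, 0.483 and 0.451 times the control level. Cxcl2, a chemokine that attracts neutrophils, was 2.08, 2.23 and 0.960 times the control level, and Cxcl3, a related chemokine, 5.39, 6.47 and 1.56 times. The calls of Cxcl2 were lost after TMM scaling, at 0.62 and 0.90 on the log2 scale on days 4 and 5. Saa3, an acute phase gene, stood at 8.80 CPM in control and 219 CPM in heme on day 4, and at 17.5 and 27.8 CPM on day 5. Clec4n, which was also higher in Camp-low than in Camp-high cells, was 3.68, 2.22 and 2.48 times the control level and was called higher on all days, though at 0.89 on the log2 scale on day 5 after TMM scaling. Lpl was 2.71, 3.43 and 2.17 times the control level, also called on all days, but 1 of the control members held 58.6% of its UMIs on day 7.

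Some day 7 calls rested on few control cells. The 6 tested stefin genes, cysteine protease inhibitors of neutrophils, were all called lower in heme on day 7, beside 2.67% of all genes, but without cycling members only Stfa3 was. Stfa1, however, was 2.05 and 9.70 times the control level on days 5 and 7 without cycling members, at 0.391 and 0.265 over all members. MHC class II genes were called lower for 5 of 6 tested on day 7, beside 2.67% of all genes. Without cycling members, of which control had 6, 0 of 6 were called lower. Among cycling members, 5 of 6 were called lower on day 7 and 6 of 6 on day 5, where control had 97 cycling members. Over all genes in cycling members, these shares were 1.79% and 2.18%. Over all members of day 5, 0 of 6 were called. Over all control members of day 7, 1 member held 56.5% of the Cd74 UMIs. Ccl17, a dendritic cell chemokine called lower on all 3 days, had 70.6% of its control UMIs of day 4 and 85.2% of those of day 7 in 1 member. The summed level of the 8 dendritic cell markers was 153, 342 and 366 CPM in control members and 137, 190 and 55.9 CPM in heme members, against 4418, 7429 and 6335 CPM and 2526, 2343 and 381 CPM in S100a8-low cells. The part of dendritic cell RNA in these differences was not tested. Cell cycle genes were called higher for 9 of 10 on day 7, against 9.72% of all genes. Cycling members made up 9.84% in control and 32.9% in heme on that day.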

How the data were processed

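The deposited files were matrices of raw UMI counts per gene and cell for a control and a heme library, with hashtag counts and per-cell hashtag classes. The authors made these counts with Cell Ranger (4.0.0 in the submitters' processing notes, 5.0.0 in the matrix header) on GRCm38.p6, and assigned hashtags, which also marked doublets, with Seurat (3.2.3). The notes also name Scanpy (1.6.0) and R (4.4). Barcodes called singlets of days 4, 5 or 7 with 500 or more genes and under 15% mitochondrial UMIs were kept, with no further doublet caller. UMIs were summed over members per culture and divided by the total. Heme to control ratios carry exact conditional binomial 95% intervals. S100a8 and Camp were left out of counts of genes. With 1 library per treatment no test between treatments was possible, and intervals cover counting error only.

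Members, gene lists and the rule for named genes were chosen with earlier results of these data known. Named were the 10 genes furthest above and below a ratio of 1 on each day by the nearer interval bound, genes called alike on 3 days, list members, and the 10 most different from Camp-high or S100a8-low cells in their least different culture. Not all of these are printed. Shares carry Clopper-Pearson intervals. Cells were thinned to 2000 UMIs, and erythroid cells of day 0 with UMIs of 3 or more of 6 markers served as a measure of free RNA. A gene with 0 UMIs on 1 side was compared with a floor of 3 counts. Alternatives were TMM (edgeR 4.0.16) and DESeq2 (1.42.0) factors, other filters, limits and totals, mean single-cell CPM, and members left out. Python 3.11.15, numpy 2.4.6, scipy 1.17.1, pandas 2.3.3, matplotlib 3.10.9 and R 4.3.3 were used, and scripts were tested on simulated data.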

Additional observations from a re-analysis of the deposited data

Results flagged for a closer look

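Barcodes outside the compared cells also met the S100a8 and Camp limits. Among barcodes with more than 1 hashtag, 11.3% in control (141 of 1244) and 13.8% in heme (269 of 1951) did so, above the 0.241% and 0.154% that a count of 0 would allow. Among barcodes with no hashtag, the share was 2.74% in control (11 of 402) and 6.73% in heme (61 of 907). On day 3, before heme was added, it was 11.0% (229 of 2089) in the control library and 9.52% (319 of 3351) in the heme library. On day 0 it was 0.304% (5 of 1646) and 0.274% (5 of 1827), close to the 0.182% and 0.164% that a count of 0 would allow.

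The heme to control ratio of Il1b in Camp-low cells was 2.78 on day 4 and 0.279 on day 7, in opposite directions. The ratio of Osm, which encodes the cytokine oncostatin M, was 0.488 on day 5 and 2.00 on day 7. The differences between these days were not tested, since each culture was 1 sample.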

How the results depend on the processing

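No paired analysis was possible because each treatment was 1 library and no replicate numbers are shared. Of 202 called values of named or listed genes, 170 kept their call with TMM or DESeq2 factors. With S100a8, S100a9 and ribosomal protein genes out of the total, 187 did. All 202 kept it with no filter beyond 1 UMI, and 181 with a minimum of 100 UMIs. A filter only sets which genes are tested, so the looser filter could remove no call. With 100 UMIs, 181 values were tested and all of these kept their call. The call was kept by 169 with mean single-cell CPM and by 149 without members holding a Csf1r or Adgre1 UMI. It was kept by 170 with an S100a8 limit of 5% and by 186 with a Camp limit of 0.1%. With at most 5000 genes and under 30% ribosomal protein UMIs, 181 kept it. Without cycling members 129 did, and without the member with most UMIs of the gene 179 did.

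The share of members, heme minus control, was 8.77 points on day 4 and 7.60 on day 7 with a Camp limit of 0.5%, 26.5 on day 5 and 8.25 on day 7 with the upper limits on genes and ribosomal protein UMIs, 11.2 on day 5 and 3.62 on day 7 without cycling members, and 4.53 on day 7 with S100a8 of 5%. Higher calls on days 4, 5 and 7 numbered 164, 151 and 442 with TMM, and 360 on day 4 and 422 on day 7 with DESeq2 factors. They numbered 1412 and 807 on days 4 and 5 with no filter, 479 on day 7 with 100 UMIs, 1646, 595 and 418 without members holding Csf1r or Adgre1, 389 on day 7 without cycling members, and 1236 on day 7 without the top member. Lower calls numbered 370, 262 and 333 with TMM and 413, 322 and 361 with DESeq2 factors. They numbered 119 on day 4 with the reduced total, 126 and 248 on days 4 and 5 with no filter, 199 and 203 on these days without members holding Csf1r or Adgre1, 111 on day 4 with the upper limits, 102 on day 4 without cycling members, and 90 and 123 on day 7 with 100 UMIs and without the top member. Genes higher on all days numbered 143 without day 5, 197 without day 7, 15 with TMM and 87 without the top member. Genes lower on all days numbered 49 without day 4, 32 without day 7, 36 with TMM, 6 without the top member and 16 without cycling members. Of the genes lower on all days over all members, only Gpx1, Isg15, Klk1b11 and Myl12b were among these 16. Thinned to 1000 UMIs, Csf1r was found in 4.35%, 11.2% and 3.28% of control and 9.65%, 12.7% and 5.80% of heme members, and Adgre1 in 5.69%, 9.39% and 8.20% of control and 11.5%, 14.9% and 10.7% of heme members.

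Reversed log2 ratios without cycling members were 0.45 and 0.80 for Elane and 1.82 and 2.11 for Mpo on days 4 and 5, 1.49 for Ccl17 on day 5, 1.03 and 3.28 for Stfa1 on days 5 and 7, and -0.28 for Ms4a3 on day 7. Without members holding Csf1r or Adgre1 they were 1.25 for Ccl17, 3.29 for Hba-a1, 1.66 for Hbb-bs and 3.62 for Hbb-bt on day 4, and 0.69 for H2-Aa and 0.033 for H2-Eb1 on day 7. With S100a8 of 5% they were 0.11 for Ccl17 on day 4, and 0.10 for Cd74 and 0.018 for H2-Aa on day 7. With mean single-cell CPM they were 0.33 for Mpo on day 5 and 0.030 for Itgax on day 7. Itgax on day 7 was 0.064 with the upper limits and 0.35 without the top member. The cause was not tested. The 61 control members of day 7, with 287221 UMIs, limit every value of that day.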

Other observations

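Genes outside the lists also differed in 1 direction on all days. Srgn, which encodes the proteoglycan that packs granule proteins, stood at 580, 422 and 675 CPM in control members on days 4, 5 and 7 and at 187, 187 and 312 CPM in heme members. Klk1b11, a kallikrein gene, stood at 41.6, 151 and 146 CPM in control and 2.38, 9.30 and 23.5 CPM in heme, ratios of 0.0571, 0.0616 and 0.161. Its call was kept without cycling members, whereas that of Srgn was kept on day 4 only.

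Of 12 glycolysis genes, none was called on any day by the 2-fold rule, beside 12.2%, 6.44% and 12.4% of all genes. Of 6 genes of the NADPH oxidase, which makes superoxide in neutrophils, none was called either. The list medians of the oxidase genes were -0.02, -0.47 and -0.33 on the log2 scale. After TMM scaling, however, the oxidase genes Cyba and Ncf4 were past 2-fold lower on day 5, at -1.07 and -1.09 on the log2 scale. Bcl2a1b, a survival gene of the BCL2 family whose copies share sequence, stood at 0.520, 0.370 and 0.213 times the control level, called lower on days 5 and 7. Cebpe, a transcription factor of granulocyte maturation, stood at 118 CPM in control and 256 CPM in heme on day 7, a ratio of 2.16 (1.53 to 3.15) beside 9.84% and 32.9% of cycling members, and the ratio was 1.87 without cycling members.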
